A study of Mus musculus with 28 samples.

Results

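The genes that encode the replacement histone H3.3 and the chaperones that carry histone H3 were followed while mouse Pre-B cells were converted toward macrophages. The 10 genes were taken by symbol from a table of 55450 genes: the H3.3 genes H3f3a and H3f3b, 3 replication-coupled chaperone genes (Chaf1a, Chaf1b and Asf1b), and 5 replication-independent ones (Hira, Ubn1, Asf1a, Daxx and Atrx). All 10 were listed in all 12 RNA-seq libraries. By 48h the 3 replication-coupled genes had fallen to between 3.67% and 11.5% of their 0h mean, and Hira and Asf1a, of the independent class, had fallen less, to 38.9% and 40.3%. Daxx, at 12.4 times its 0h mean, was the only chaperone called higher on the deposited values, where Ubn1 and Atrx had no call. Atrx was also called higher when the libraries were rescaled. Of the H3.3 genes H3f3b had risen, and H3f3a was not called on the deposited values but was called higher when the libraries were rescaled.

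Nucleosomes are built with canonical H3 during DNA replication and with H3.3 at any time. CAF-1, of which CHAF1A and CHAF1B are subunits, is brought to the replication fork by the sliding clamp PCNA and deposits canonical H3 with H4. HIRA, with UBN1 and CABIN1, deposits H3.3 at genes and regulatory elements, and DAXX with the remodeller ATRX deposits it at telomeres, pericentromeres and silenced repeats. ASF1A and ASF1B hand H3-H4 to these complexes. ASF1A is the form best known for its work with HIRA, and ASF1B is the form best known from dividing cells.

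The cells were C10, a line of mouse Pre-B cells in which every group carries a C/EBPα-estrogen receptor fusion transgene, so that β-estradiol moves C/EBPα into the nucleus. Uninduced cells (0h) were compared with cells given 100 nM β-estradiol, 10 nM IL-3 and CSF-1 for 1h, 12h or 48h, with 3 biological replicates at each time. This is a single engineered line grown in culture, and no uninduced culture kept for 48h was analysed here. In bulk RNA, fewer cells expressing a gene and less RNA per cell cannot be told apart.

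RNA was read as TPM, each transcript's share of a library corrected for transcript length, so that levels of different genes can be compared. The table holds no counts, so the depth of the libraries cannot be read from it and was not used here. A ribosomal RNA locus took 70.3% to 82.9% of the TPM of each library. The median log2 fold change against 0h over the 16415 genes tested was 0.59, 0.34 and -0.18 for 1h, 12h and 48h, and 0.02, 0.07 and 0.07 after the libraries were rescaled by the median of their gene ratios (median-of-ratios scaling). Values after that scaling are given where they change a call of the 10 genes, and counts where they change those of a list. Of 6 Pre-B markers tested all 6 fell by 48h, and their summed TPM went from 184 to 216 at 0h to between 15.6 and 24.2. Of 6 macrophage markers 5 were tested and all 5 rose, with a summed TPM of 1.32 to 1.64 at 0h and 161 to 224 at 48h, but Adgre1, which encodes the macrophage antigen F4/80, was listed at 0 in every 0h and 1h library and reached at most 0.29. The sum of 4 T cell markers was at most 0.09 in any library. All 9 cell cycle markers fell by 48h as well, from a summed TPM of 122 to 155 at 0h to between 2.87 and 3.28. Of all genes tested, 27.2% fell and 15.9% rose by 48h. The part of these cell cycle changes in those of the chaperones was not tested.

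The promoters of the 3 replication-coupled genes, the H3.3 pair and Daxx are shown as examples. Those of Hira and Asf1a, which also fell, and of Ubn1 and Atrx were searched but are not shown. All 10 genes were matched to RefSeq start sites, 12 in all, on build GRCm38.p6, and windows of 300 bases, from 250 before to 50 after the start, were searched on both strands. The bases before the start are printed 5′ to 3′ on the gene's strand. Capitals mark matches of the CCAAT box (CCAAT), the cell cycle element CHR (TTTGAA), the C/EBP site (TTGCNNAA) and the TATA box (TATAAA). The CCAAT box was present in 8 of the 10 genes and in 37.4% of all 32851 windows. A gene was counted if any of its windows held a match, whereas the share is per window. At least 4 boxes were present in 3 of the genes, Asf1b, H3f3b and Atrx, and in 1.06% of all windows. The first 3 sequences are chr17:56040166-56040415 (+ strand) for Chaf1a, chr16:93883651-93883900 (+ strand) for Chaf1b and chr8:83955444-83955693 (+ strand) for Asf1b.
Chaf1a: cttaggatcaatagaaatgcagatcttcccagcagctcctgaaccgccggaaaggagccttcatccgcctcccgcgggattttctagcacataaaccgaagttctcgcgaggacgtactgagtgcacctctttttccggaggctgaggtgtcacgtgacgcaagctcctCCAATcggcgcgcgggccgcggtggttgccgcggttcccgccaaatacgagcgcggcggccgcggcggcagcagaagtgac
Chaf1b: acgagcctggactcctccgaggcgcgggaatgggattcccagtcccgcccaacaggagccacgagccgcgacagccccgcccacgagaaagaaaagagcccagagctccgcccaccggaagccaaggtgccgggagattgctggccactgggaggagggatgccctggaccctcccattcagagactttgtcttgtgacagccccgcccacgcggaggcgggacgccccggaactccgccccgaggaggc
Asf1b: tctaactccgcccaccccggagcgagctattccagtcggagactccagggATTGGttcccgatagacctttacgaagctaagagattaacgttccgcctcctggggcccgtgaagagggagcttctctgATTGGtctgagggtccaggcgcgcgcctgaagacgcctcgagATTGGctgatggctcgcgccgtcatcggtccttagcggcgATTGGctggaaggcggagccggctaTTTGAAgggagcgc
The 3 genes that fell together did not share an arrangement of these motifs. Asf1b held 4 CCAAT boxes, at -200, -121, -79 and -39 bases from its start, and a CHR match at -14, which 17.9% of all windows hold. Chaf1a held 1 CCAAT box, at -81, and Chaf1b held none.

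The H3.3 genes also differed from each other. Their sequences are chr1:180813606-180813855 (- strand) for H3f3a and chr11:116024505-116024754 (- strand) for H3f3b, followed by the first of the 3 annotated starts of Daxx, chr17:33909195-33909444 (+ strand).
H3f3a: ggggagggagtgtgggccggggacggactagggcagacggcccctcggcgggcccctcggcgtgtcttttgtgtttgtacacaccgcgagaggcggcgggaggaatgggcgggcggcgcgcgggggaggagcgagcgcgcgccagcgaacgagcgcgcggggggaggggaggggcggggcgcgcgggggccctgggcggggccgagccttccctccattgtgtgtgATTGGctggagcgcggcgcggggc
H3f3b: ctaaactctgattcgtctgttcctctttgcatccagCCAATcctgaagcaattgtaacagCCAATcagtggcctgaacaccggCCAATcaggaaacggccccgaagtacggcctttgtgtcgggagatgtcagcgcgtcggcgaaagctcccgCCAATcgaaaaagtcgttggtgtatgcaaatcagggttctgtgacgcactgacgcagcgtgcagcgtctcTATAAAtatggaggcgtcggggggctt
Daxx: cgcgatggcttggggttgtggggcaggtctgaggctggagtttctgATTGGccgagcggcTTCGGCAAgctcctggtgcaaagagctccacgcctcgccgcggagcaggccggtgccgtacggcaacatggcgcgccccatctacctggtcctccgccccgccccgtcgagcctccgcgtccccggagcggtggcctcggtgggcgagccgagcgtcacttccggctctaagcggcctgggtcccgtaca
H3f3b held CCAAT boxes at -214, -190, -167 and -97 and a TATA box at -27. H3f3a held a single CCAAT box, at -24, in a sequence of 77.2% G and C against 54.0% in H3f3b. Daxx held the only C/EBP match among the 10 genes, TTCGGCAA at -190 on the reverse strand, a motif found in 10.8% of all windows. None of the 10 genes held the E2F site in the forms TTTCCCGC or TTTCGCGC or TTTGCCGC or TTTGGCGC, which 2.26% of all windows hold. Other forms of this site were not searched, so its absence from these promoters was not shown. The interferon element, in the form searched, was found in none of the 10 genes, Daxx included, and in 3.44% of all windows. Other forms of that element were not searched either. A match is a run of letters and not a measured binding site.

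Changes were tested with limma on log2(TPM + 0.1) over all 16415 genes, with Benjamini-Hochberg adjustment, and a gene was called when its adjusted p was under 0.05. All 10 genes passed the filter of a mean TPM of 0.1. At 1h against 0h, 6 of the 10 genes rose and none fell, where 24.1% of all genes tested rose and 1.41% fell. At 12h, 2 rose and 4 fell, against 22.3% and 7.82% of all genes. At 48h, 2 rose and 5 fell, against 15.9% and 27.2%. With the libraries rescaled, none of the 10 was called at 1h (5.42% of all genes rose and 4.92% fell), 2 rose and 5 fell at 12h (16% and 14.5%), and 4 rose and 5 fell at 48h (24.5% and 22%). Between 1h and 12h, 1 of the 10 rose and 6 fell, against 6.98% and 15% of all genes, and 2 and 5 after rescaling, against 11.3% and 8.77%. Between 12h and 48h, 1 rose and 6 fell, against 4.1% and 31.7%, and 3 and 2 after rescaling, against 10.5% and 11.9%. The calls of fallen genes between 12h and 48h thus depended on the scaling for Hira, Asf1a, Chaf1b and H3f3a.

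CHAF1A is the large subunit of CAF-1 and the one that binds PCNA. Chaf1a (chr17:56040439-56072289, GRCm38) was at 4.19, 3.44 and 3.93 TPM in the 0h libraries, 7.43, 5.49 and 6.76 at 1h, 0.71, 1.30 and 1.68 at 12h, and 0.22, 0.19 and 0.16 at 48h. The libraries of each time lay apart from those of every other time. Its log2 fold change against 0h was 0.75 ± 0.28 (SE, adjusted p = 0.0684, limma, not called) at 1h, -1.64 ± 0.28 (adjusted p = 0.00106) at 12h and -3.77 ± 0.28 (adjusted p = 7.42e-07) at 48h. The 48h mean was thus 1/20.3 of the 0h mean in TPM. The gene overlaps Ubxn6 on the opposite strand, at a mean of 2.44 TPM, and reads of the strands may not have been told apart.

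CHAF1B is the WD-repeat subunit that holds H3-H4 beside CHAF1A. Chaf1b (chr16:93883901-93906115) was at 3.82, 3.23 and 3.16 TPM at 0h, 6.81, 6.92 and 4.61 at 1h, 0.63, 1.39 and 1.35 at 12h, and 0.28, 0.44 and 0.45 at 48h. Here too no library of 1 time overlapped those of another. The log2 fold change was 0.81 ± 0.30 (SE, adjusted p = 0.0699, limma, not called) at 1h, -1.58 ± 0.30 (adjusted p = 0.00227) at 12h and -2.85 ± 0.30 (adjusted p = 1.37e-05) at 48h. The TPM ratio of Chaf1a to Chaf1b, subunits of the same complex, went in time order from 1.14 ± 0.0953 (SD, n = 3) through 1.1 ± 0.34 and 1.10 ± 0.156 to 0.524 ± 0.230 at 48h, where both genes were under 0.5 TPM. RBBP4, the subunit that CAF-1 shares with other chromatin complexes, fell less: Rbbp4 was at 14 ± 1.1 TPM (SD, n = 3) before induction and 3.90 ± 1.30 at 48h (log2 fold change -1.86 ± 0.22 (SE), adjusted p = 2.98e-05, limma). There were 3.64 ± 0.324 Rbbp4 TPM per Chaf1a TPM at 0h and 20.8 ± 7.02 at 48h.

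Asf1b showed the deepest loss of the 10 genes. Asf1b (chr8:83955507-83970197) was at 6.43, 7.0 and 5.94 TPM at 0h, 13.0, 9.12 and 10.1 at 1h, 3.33, 3.42 and 3.95 at 12h, and 0.20, 0.27 and 0.24 at 48h. The order of the 4 times was the same as for the CAF-1 genes, but on the log2 scale most of the decline came after 12h. Its log2 fold change against 0h was 0.71 ± 0.19 (SE, adjusted p = 0.0180, limma) at 1h, -0.84 ± 0.19 (adjusted p = 0.00583) at 12h and -4.29 ± 0.19 (adjusted p = 1.45e-08) at 48h. Between 12h and 48h it changed by -3.45 ± 0.19 (SE, adjusted p = 4.63e-07, limma), while Chaf1a changed by -2.13 ± 0.28 (adjusted p = 0.000156) and Chaf1b by -1.27 ± 0.30 (adjusted p = 0.00672). From 1h to 12h the CAF-1 genes both had a log2 fold change of -2.39 and Asf1b had one of -1.55. These differences between genes were not tested. After median-of-ratios scaling the step of Chaf1b from 12h to 48h was -0.64 and was not called (adjusted p = 0.0890, limma; range 0.00125 to 0.0890 in 22 alternatives).

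**Figure D1:**
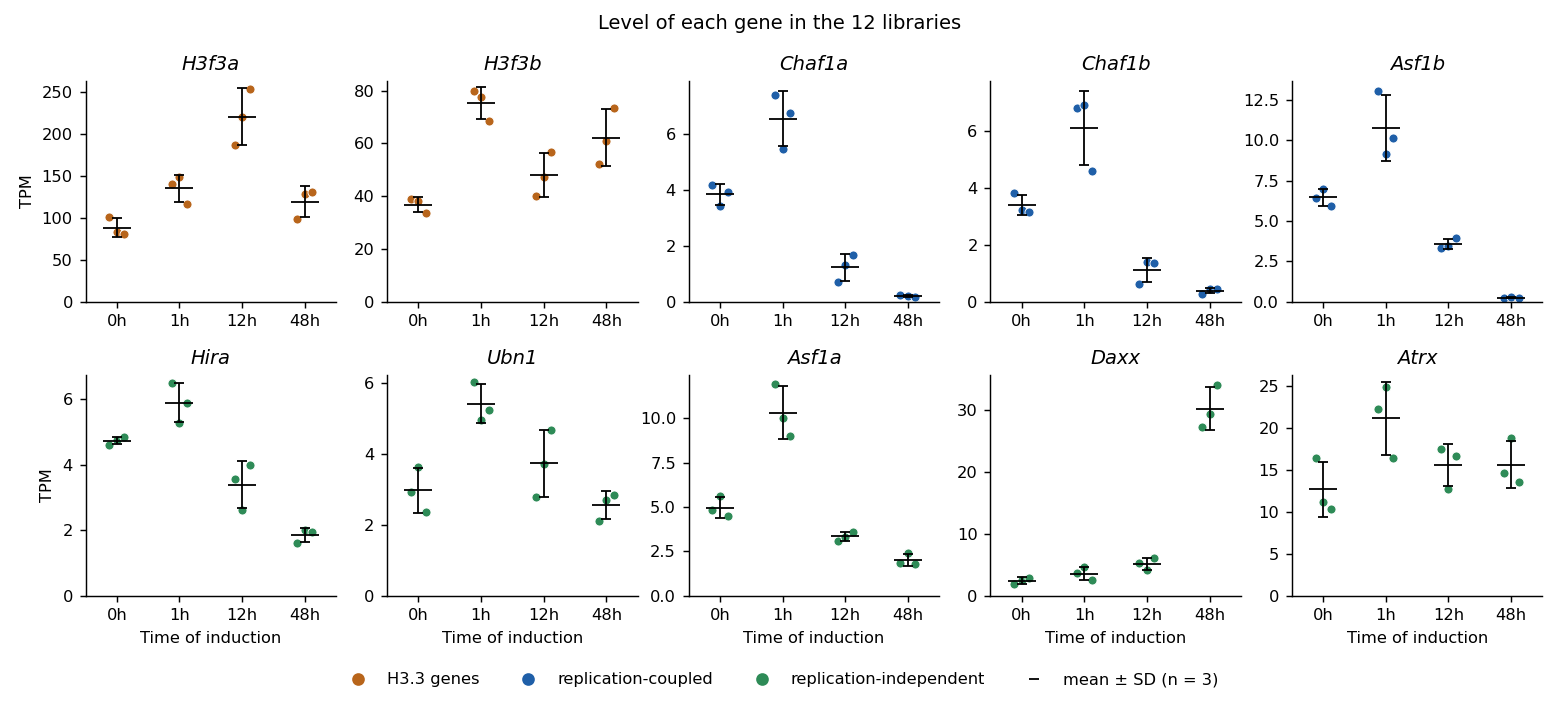
TPM of each of the 10 genes in the 12 libraries, against the time of induction (0h, 1h, 12h, 48h), with 1 panel per gene and its own axis from 0. Points are libraries, black bars the mean and SD of 3. Chaf1a, Chaf1b and Asf1b are near 0 at 48h, where Daxx is between 27.3 and 34.1 TPM.

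Hira and Asf1a, which belong to the replication-independent side, fell as well but less. HIRA is the scaffold of the H3.3 deposition complex. Hira (chr16:18877037-18970309) was at 4.61, 4.74 and 4.83 TPM at 0h, 6.48, 5.28 and 5.89 at 1h, 3.56, 2.60 and 3.99 at 12h, and 1.60, 1.99 and 1.93 at 48h. The 12h and 48h libraries all lay below the 0h ones. At 48h the log2 fold change was -1.32 ± 0.19 (SE, adjusted p = 0.000151, limma). At 12h it was -0.49 ± 0.19 (adjusted p = 0.0733, limma, not called), and -0.82 ± 0.17 after median-of-ratios scaling (adjusted p = 0.00399; range 0.00399 to 0.220 in 22 alternatives). At 1h it was 0.31 ± 0.19 (adjusted p = 0.257, limma), and -0.34 after that scaling. Its step from 1h to 12h was -0.80 ± 0.19 (adjusted p = 0.0117, limma), and -0.48 when rescaled (adjusted p = 0.0765, not called; range 0.00620 to 0.108 in 22 alternatives). That from 12h to 48h was -0.83 ± 0.19 (adjusted p = 0.00549, limma), and -0.11 when rescaled (adjusted p = 0.712, not called; range 0.00242 to 0.712). The gene overlaps Gm28539 on the same strand, at a mean of 1.08 TPM, with which it may share reads.

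Asf1a (chr10:53596757-53609225) was at 4.82, 5.63 and 4.47 TPM at 0h, 11.9, 10.0 and 9.03 at 1h, 3.11, 3.31 and 3.61 at 12h, and 1.85, 2.39 and 1.77 at 48h. It overlaps Mcm9, a helicase gene on the opposite strand with a mean of 1.60 TPM. Its log2 fold change was 1.04 ± 0.18 (SE, adjusted p = 0.00260, limma) at 1h, -0.56 ± 0.18 (adjusted p = 0.0394) at 12h and -1.28 ± 0.18 (adjusted p = 0.000144) at 48h. The 12h call was held in 15 of 22 alternatives. From 12h to 48h the value was -0.72 ± 0.18 (adjusted p = 0.00951, limma), and 0.00039 when rescaled (adjusted p = 1.0, not called; range 0.00567 to 1.0). The TPM ratio of Asf1a to its paralogue Asf1b was 0.769 ± 0.0308 (SD, n = 3) before induction, 0.969 ± 0.114 after 1h, 0.939 ± 0.0273 after 12h and 8.49 ± 0.988 after 48h. In the 3 libraries at 48h it was 9.25, 8.85 and 7.38, and in the other 9 libraries it was at most 1.10. The balance of the paralogues therefore turned between 12h and 48h, although each had fallen by 48h.

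UBN1 binds H3.3 within the HIRA complex. Ubn1 (chr16:5050057-5086289) was at 2.92, 3.62 and 2.37 TPM at 0h, 6.03, 4.97 and 5.24 at 1h, 2.80, 3.72 and 4.69 at 12h, and 2.1, 2.69 and 2.85 at 48h. It was higher at 1h, by 0.86 ± 0.23 on the log2 scale (SE, adjusted p = 0.0203, limma), and the 12h and 48h libraries overlapped those at 0h. The log2 fold change was 0.31 ± 0.23 at 12h (adjusted p = 0.343, limma) and -0.21 ± 0.23 at 48h (adjusted p = 0.514), and after median-of-ratios scaling -0.02 and 0.19, neither of them called. The TPM ratio of Hira to Ubn1 was, in time order, 1.64 ± 0.368 (SD, n = 3), 1.09 ± 0.0326, 0.940 ± 0.297 and 0.726 ± 0.0439.

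Daxx was the only chaperone of the 8 that was called higher at 48h on the deposited scale. DAXX is an H3.3 chaperone that also sits in PML nuclear bodies. Daxx (chr17:33909414-33915590) was at 1.84, 2.55 and 2.94 TPM at 0h, 3.60, 4.59 and 2.52 at 1h, 5.21, 4.21 and 6.09 at 12h, and 27.3, 29.4 and 34.1 at 48h. The 48h libraries stood far above the others, the 12h libraries lay above all at 0h, and those at 0h and 1h overlapped. Its log2 fold change was 0.51 ± 0.25 (SE, adjusted p = 0.149, limma, not called) at 1h, 1.06 ± 0.25 (adjusted p = 0.00765) at 12h and 3.59 ± 0.25 (adjusted p = 4.64e-07) at 48h, of which 2.53 ± 0.25 came after 12h (adjusted p = 2.26e-05). Both calls against 0h were held in all 22 alternatives. At 1h the value after median-of-ratios scaling was -0.13. From 1h to 12h the deposited values gave 0.55 ± 0.25 (adjusted p = 0.141, limma, not called), and 0.86 ± 0.23 when rescaled (adjusted p = 0.0243; range 0.0243 to 0.374 in 22 alternatives).

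ATRX is the chromatin remodeller that works with DAXX. Atrx (chrX:105797615-105929403) was at 16.4, 11.2 and 10.4 TPM at 0h, 22.2, 24.8 and 16.4 at 1h, 17.5, 12.8 and 16.6 at 12h, and 14.6, 18.8 and 13.5 at 48h. The libraries overlapped between 0h and each later time. The log2 fold change was 0.74 ± 0.23 (SE, adjusted p = 0.0364, limma) at 1h, 0.32 ± 0.23 (adjusted p = 0.332) at 12h and 0.32 ± 0.23 (adjusted p = 0.303) at 48h. With the libraries rescaled the last of these was 0.73 ± 0.19 and was called (adjusted p = 0.00893, limma; range 0.00893 to 0.626 in 22 alternatives). The step from 12h to 48h was -0.00061 ± 0.23 (adjusted p = 1.0, limma), and 0.74 ± 0.19 when rescaled (adjusted p = 0.0171, called; range 0.0171 to 1.0). Within the libraries the TPM ratio of Daxx to Atrx was, in time order, 0.208 ± 0.0873 (SD, n = 3), 0.167 ± 0.0161, 0.332 ± 0.0347 and 1.99 ± 0.487. The corresponding ratio of Daxx to Hira, the other main H3.3 chaperone, was 0.515 ± 0.107, 0.618 ± 0.227, 1.54 ± 0.0784 and 16.5 ± 1.52.

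The H3.3 genes encode the same protein, and their means peaked at different times. H3f3a (chr1:180800832-180813943) was at 101, 82.5 and 80.8 TPM at 0h, 140, 148 and 117 at 1h, 187, 221 and 254 at 12h, and 98.3, 129 and 131 at 48h. Every 12h library was above every library of the other times. The log2 fold change was 0.62 ± 0.18 (SE, adjusted p = 0.0308, limma) at 1h and 1.32 ± 0.18 (adjusted p = 0.000273) at 12h. From 12h to 48h it was -0.89 ± 0.18 (SE, adjusted p = 0.00299, limma), but -0.14 after median-of-ratios scaling, where it was not called (adjusted p = 0.422; range 0.00206 to 0.856 in 22 alternatives). Against 0h the 48h libraries, of which 1 overlapped, gave 0.43 ± 0.18 (SE, adjusted p = 0.0801, limma, not called) on deposited values and 0.84 ± 0.11 (adjusted p = 7.13e-05, called; range 7.13e-05 to 0.199 in 22 alternatives) on rescaled ones. Without the first 48h replicate the value was 0.56 (adjusted p = 0.0367, limma, called). Both the gap between 12h and 48h and the call at 48h therefore depend on how libraries are scaled.

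H3f3b (chr11:116021912-116027962) was at 38.9, 38.1 and 33.5 TPM at 0h, 79.9, 77.4 and 68.5 at 1h, 40.1, 47.3 and 56.8 at 12h, and 52.0, 60.8 and 73.6 at 48h. Its highest mean was at 1h, where the log2 fold change was 1.03 ± 0.18 (SE, adjusted p = 0.00216, limma), and it was not called at 12h (0.37 ± 0.18, adjusted p = 0.134). At 48h it was higher than at 0h again, by 0.74 ± 0.18 on the log2 scale (adjusted p = 0.00479, limma), and on rescaled values this was its largest change (1.15 ± 0.11, beside 0.37 ± 0.11 at 1h). Its step from 12h to 48h was 0.37 ± 0.18 (adjusted p = 0.127, limma, not called), and 1.1 ± 0.11 when rescaled (adjusted p = 2.39e-05; range 2.39e-05 to 0.330 in 22 alternatives). From 1h to 12h it changed by -0.66 ± 0.18 (SE, adjusted p = 0.0204, limma) while H3f3a changed by 0.70 ± 0.18 (adjusted p = 0.0182), and both signs were kept under all 22 alternatives. The TPM ratio of H3f3a to H3f3b, which a single factor per library cannot alter, was 2.39 ± 0.219 (SD, n = 3) before induction, 1.79 ± 0.109 after 1h, 4.6 ± 0.11 after 12h and 1.93 ± 0.172 after 48h. At 12h the 3 ratios, 4.65, 4.67 and 4.48, were above the ratio of every other library, of which the highest was 2.60. These genes have processed pseudogenes from which their reads may not be fully separated, and H3f3a overlaps the antisense H3f3aos, at a mean of 0.112 TPM, and the noncoding Gm17275, at 2.58 TPM.

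At 1h, the changes of the 10 genes lay around the shift over all genes. Their log2 fold changes ran from 0.31 (Hira) to 1.04 (Asf1a) beside a median of 0.59 over all genes, and after median-of-ratios scaling none of the 10 was called. The closest was H3f3b, at 0.37 ± 0.11 (SE, adjusted p = 0.0515, limma; range 0.00142 to 0.0535 in 22 alternatives). The 1h calls also depended on single libraries: 2 genes were called without 0h replicate 3 and 2 without 1h replicate 1, and 8 without 12h replicate 1, a library that enters this contrast only through the shared estimate of spread.

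**Figure D2:**
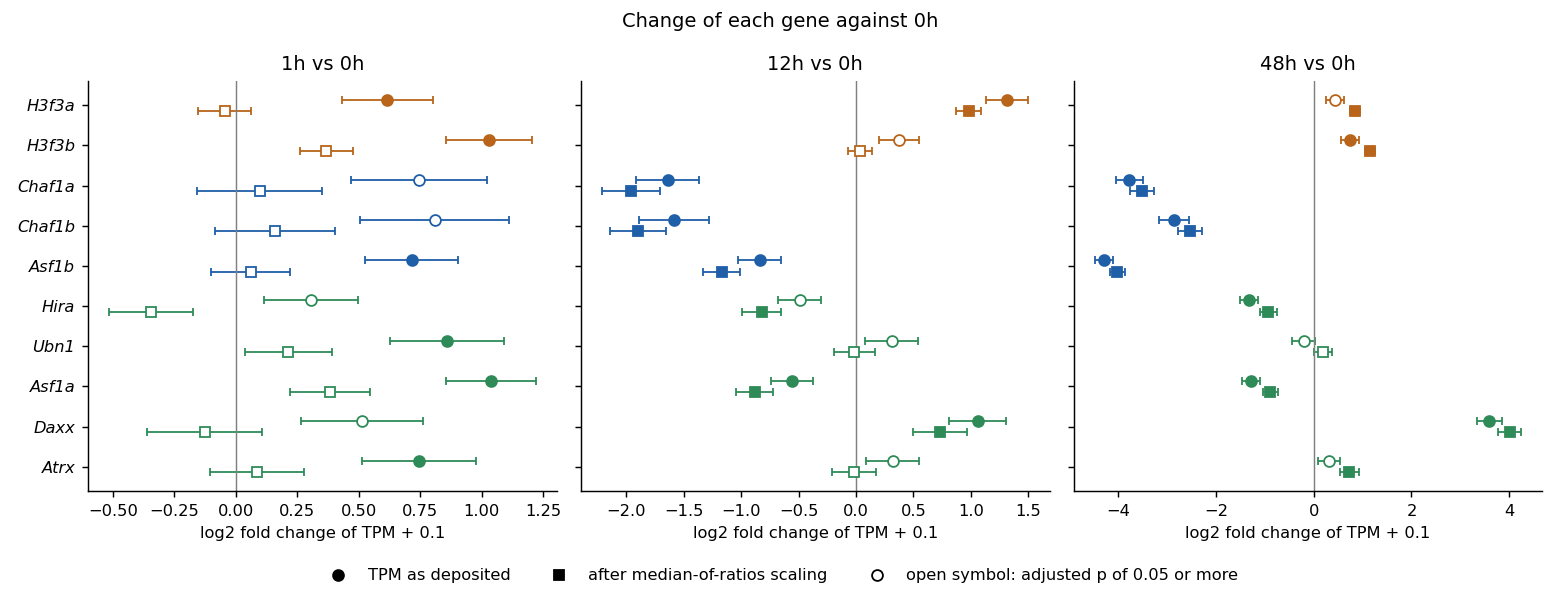
Log2 fold change of TPM + 0.1 against 0h at 1h, 12h and 48h for the 10 genes, with bars of 1 standard error. Circles are TPM as deposited and squares TPM after median-of-ratios scaling, filled where the adjusted p is under 0.05. At 1h no square is filled, and at 48h Chaf1a, Chaf1b and Asf1b are the lowest and Daxx the highest on both scales.

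The contrast of the classes was taken within each library, as the mean log2(TPM + 0.1) of Chaf1a, Chaf1b and Asf1b minus that of Hira, Ubn1, Asf1a, Daxx and Atrx. It was 0.03, -0.19 and -0.05 in the 0h libraries, 0.08, -0.16 and 0.06 at 1h, -1.99, -1.23 and -1.45 at 12h, and -3.90, -3.97 and -3.92 at 48h. Thus the classes were level at 0h and 1h, and the coupled genes were lower in every library at 12h and lower still in every library at 48h. Daxx contributed to the late values: without it the difference was -0.30 ± 0.11 (SD, n = 3) at 0h and -3.31 ± 0.07 at 48h. No p is given for these means, because the genes were chosen with results known.

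In summed TPM the coupled genes were, in time order, at 13.7 ± 0.706 (SD, n = 3), 23.4 ± 3.33, 5.92 ± 1.17 and 0.817 ± 0.104. The independent genes were at 27.8 ± 2.80, 46.3 ± 6.32, 31.2 ± 4.26 and 52.2 ± 4.24. Most of the 48h sum was Daxx, at 57.9 ± 4.87% of it against 9.0 ± 2.9% at 0h, and without Daxx the sum was 25.3 ± 3.35 at 0h and 22.0 ± 3.31 at 48h. The coupled genes made up 33.1 ± 1.10% of the TPM of all 8 chaperones before induction, then 33.6 ± 2.95%, 16 ± 3.1% and, by 48h, 1.54 ± 0.0747%.

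**Figure D3:**
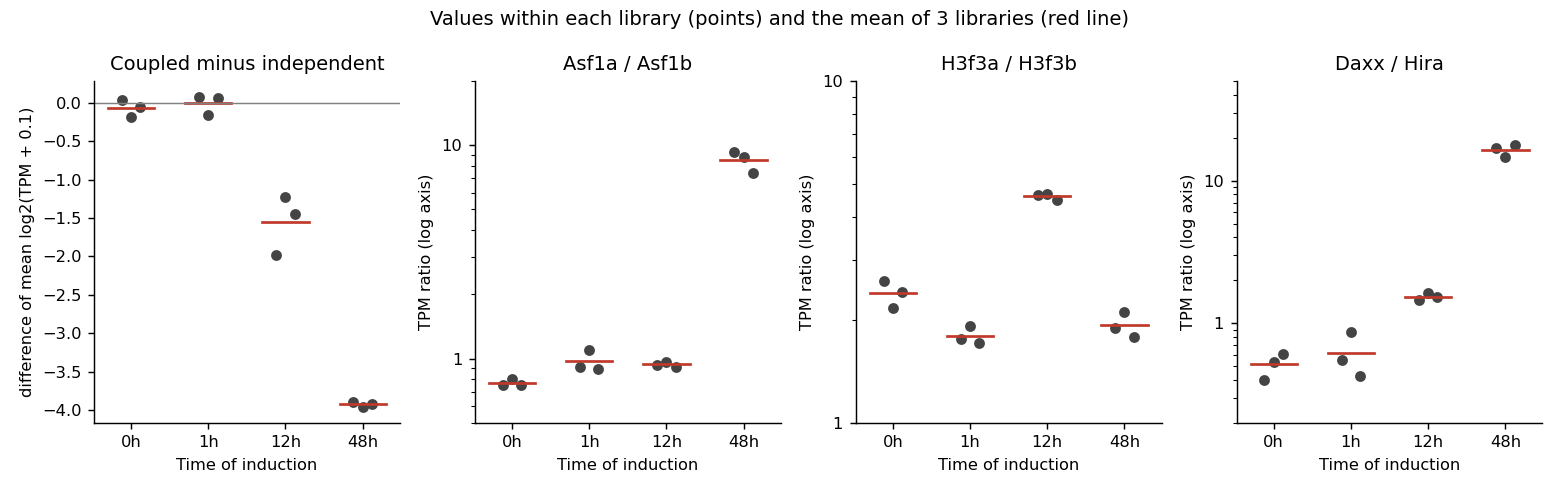
Values formed within each library, against time: the mean log2(TPM + 0.1) of the coupled minus the independent chaperones, and the TPM ratios (log axes) of Asf1a to Asf1b, H3f3a to H3f3b and Daxx to Hira. Points are libraries and red lines means of 3. The class difference drops at 12h and 48h, Asf1a to Asf1b rises at 48h only, and H3f3a to H3f3b peaks at 12h.

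The order of the levels changed accordingly. H3f3a and H3f3b were first and second at all 4 times, without overlap between their libraries. At 0h Atrx followed them and Daxx was last, and neighbouring genes overlapped from Chaf1a through Chaf1b and Ubn1 to Daxx, as did Asf1a and Hira. At 1h Atrx was followed by Asf1b, Asf1a, Chaf1a, Chaf1b, Hira, Ubn1 and Daxx, with overlap between Asf1b and Asf1a and along the run from Chaf1a to Ubn1. At 12h Daxx stood next below Atrx and overlapped Ubn1, with Ubn1, Asf1b, Hira and Asf1a in a run of overlapping neighbours below it, and Chaf1a and Chaf1b last. At 48h Daxx stood next to the H3.3 genes, above Atrx without overlap. Ubn1, Asf1a and Hira followed as overlapping neighbours, and Chaf1b, Asf1b and Chaf1a were last, of which Asf1b and Chaf1a overlapped.

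Canonical H3 is what CAF-1 deposits, and its genes were counted as a sum because near-identical copies can divide reads. H3f3a and H3f3b made up 7.82%, 6.40% and 5.71% of all H3 TPM at 0h, 8.52%, 10.2% and 7.23% at 1h, 38.5%, 38.7% and 36.8% at 12h, and 87.9%, 88.8% and 79.8% at 48h. The 0h and 1h libraries overlapped, and the later times did not overlap with them or each other. Of 12 canonical H3 genes 11 were tested and all 11 fell by 48h, by log2 fold changes from -4.18 ± 0.32 (SE) for Hist1h3e (adjusted p = 1.04e-06, limma) to -8.46 ± 0.89 for Hist1h3h (adjusted p = 1.35e-05). Hist1h3h had 264 ± 38.6 TPM at 0h and 1.35 ± 1.31 at 48h (SD, n = 3). At 12h 10 of the 11 were called lower. Of all genes tested, 27.2% fell at 48h and 7.82% at 12h. There were 9.10 ± 0.523 TPM of H3.3 genes per TPM of the 3 coupled chaperones before induction, 9.06 ± 1.26 after 1h, 45.7 ± 2.53 after 12h and 222 ± 16.2 after 48h.

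Most genes of H3-H4 supply, and all those listed at the replication fork, fell as the coupled chaperones did. Of 9 genes that supply or regulate H3-H4 (histone import, acetylation, escort and the kinases of ASF1), 7 fell by 48h and none rose, against 27.2% and 15.9% of all genes, with a median log2 fold change of -2.55 beside -0.18 over all genes; 1 more was called higher after median-of-ratios scaling. The range among those that fell was from -3.57 ± 0.42 (SE, adjusted p = 2.88e-05, limma) for Ipo4, an importin that carries H3-H4, to -1.58 ± 0.27 (adjusted p = 0.000514) for Cdan1, whose product codanin-1 holds ASF1 in the cytoplasm. Tlk1 and Tlk2, the kinases, were not called (log2 fold changes -0.55 and 0.23), though Tlk2 was called higher after median-of-ratios scaling (0.64, adjusted p = 0.0313, limma). All 4 genes that meet histones at the fork fell, with a median of -3.26, from Mcm2, which holds parental H3-H4 (-4.77 ± 0.28 (SE), adjusted p = 1.56e-07, limma), to Tonsl, which reads newly made H4 (-3.02 ± 0.29, adjusted p = 6.30e-06). By 12h 6 of the 9 supply genes (7 when rescaled) and all 4 fork genes had already fallen, against 7.82% of all genes (14.5% when rescaled).

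All 5 genes of the centromeric H3 system fell by 48h, against 27.2% of all genes, with a median of -3.65. Cenpa, the centromeric H3 variant itself, was at 15.4 ± 0.198 TPM (SD, n = 3) before induction, 9.79 ± 2.41 after 12h and 0.417 ± 0.162 after 48h, a log2 fold change of -4.96 ± 0.25 (SE, adjusted p = 3.65e-08, limma), and Mis18a, of the complex that licenses its loading, changed by -2.66 ± 0.40 (adjusted p = 0.000203). At 12h 1 of the 5 was called lower on deposited values, against 7.82% of all genes. After median-of-ratios scaling it was 4 of the 5, against 14.5%. Among 6 factors of histone mRNA production 3 fell and none rose by 48h, against 27.2% and 15.9% of all genes, with a median of -0.95, and 3 fell and 1 rose when rescaled, against 22% and 24.5% of all genes. Those that fell ran from Slbp, which binds the histone mRNA stem-loop (-1.80 ± 0.28 (SE), adjusted p = 0.000297, limma), to Lsm11 of the U7 particle (-1.26 ± 0.41, adjusted p = 0.0263).

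Of 5 chaperones tied to transcription 3 fell by 48h, with a median of -0.77, beside 27.2% of all genes and a median of -0.18, and 2 fell after median-of-ratios scaling, beside 22%. They ran from Ssrp1, a subunit of FACT (-2.62 ± 0.18 (SE), adjusted p = 5.12e-07, limma), to the remodeller Chd1 (-0.77 ± 0.17, adjusted p = 0.00342), which was not called after median-of-ratios scaling (-0.37, adjusted p = 0.0758). Supt6 and Chd2 were not called, at -0.25 and -0.0022.

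Of 7 partners of HIRA and DAXX 2 rose and 2 fell by 48h, with a median of 0.18, where 15.9% of all genes rose and 27.2% fell, so the share that fell was close to that of all genes. After median-of-ratios scaling 4 rose and 2 fell, beside 24.5% and 22% of all genes. Both that rose encode proteins of PML nuclear bodies, where DAXX resides, and both are known as interferon-inducible genes. Sp100 was at 1.68, 1.09 and 1.70 TPM at 0h, 1.64, 0.86 and 0.89 at 1h, 18.7, 17.1 and 19.9 at 12h, and 80.2, 90.3 and 76.1 at 48h, a log2 fold change at 48h of 5.72 ± 0.25 (SE, adjusted p = 1.33e-08, limma). Pml was at 7.43, 8.12 and 7.18 TPM at 0h and 13.1, 14.8 and 21.9 at 48h (1.09 ± 0.25, adjusted p = 0.00368, limma), after being lower at 1h, at 3.33, 3.35 and 3.98 (-1.07 ± 0.25, adjusted p = 0.00981). The fallen genes were Trim28, a corepressor that acts with SETDB1 at repeats (43.6, 40.4 and 42.6 TPM at 0h, 5.73, 4.11 and 7.24 at 48h, -2.90 ± 0.20, adjusted p = 5.29e-07, limma), and Dek, another H3.3 chaperone (-1.67 ± 0.18, adjusted p = 1.76e-05). Cabin1 and Ubn2 of the HIRA complex and Setdb1 were not called on the deposited scale, at 0.18, 0.35 and -0.50, and the first pair were called higher after median-of-ratios scaling (0.59 and 0.75, adjusted p = 0.0214 and 0.0466, limma).

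**Figure D4:**
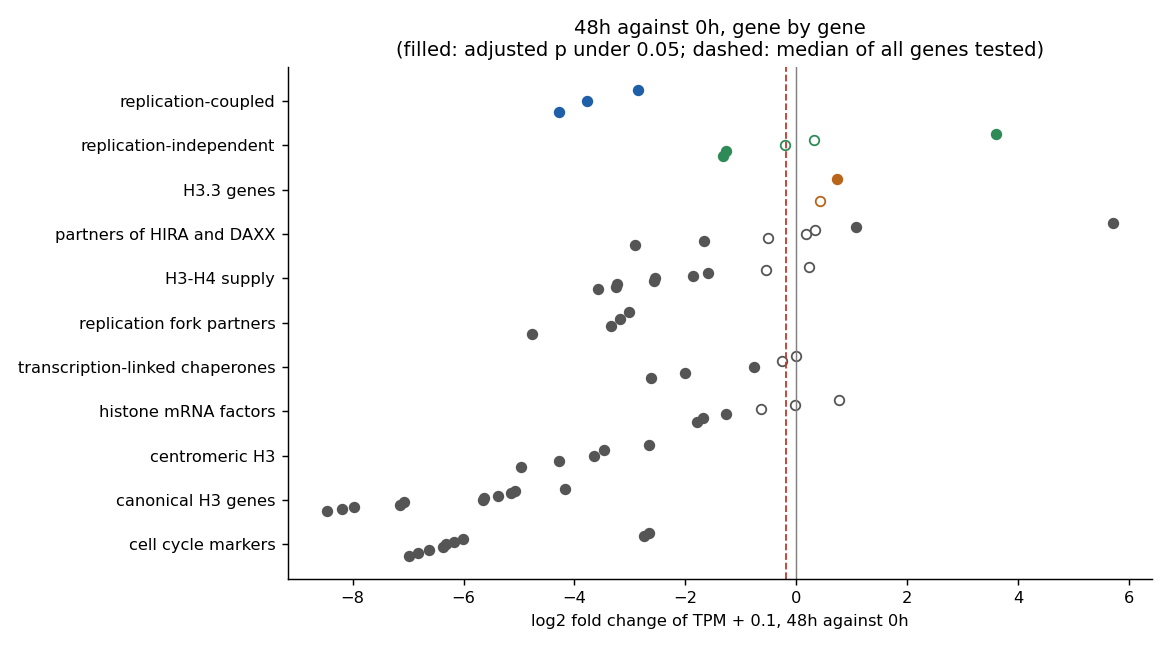
Log2 fold change of TPM + 0.1 at 48h against 0h for each gene tested, by list. Filled points have an adjusted p under 0.05, and the dashed line is the median of all 16415 genes tested (-0.18). The replication-linked lists lie to the left, and Daxx (3.59) and Sp100 (5.72) stand to the right.

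The genes whose pattern over the 12 libraries was most like the mean of the 3 coupled chaperones were Rnps1 (Pearson r = 0.997), Fen1 (0.997), Usp1 (0.996), Ticrr (0.995) and Ppm1g (0.995), on log2(TPM + 0.1). Most like the mean of the H3.3 genes were Prune1 (0.976), Cdc42se1 (0.974), Maml1 (0.967), Rit1 (0.967) and Otud5 (0.966). After median-of-ratios scaling the coupled set kept r of 0.954 or more. In the H3.3 set Otud5 was at 0.966 and Maml1 at 0.922, but Prune1 was at 0.765, Cdc42se1 at 0.804 and Rit1 at 0.849. On deposited values H3f3a and H3f3b had r of 0.320 with each other, so likeness to their mean is not likeness to each gene. Among the 10 genes themselves, Chaf1a had r of 0.976 with Chaf1b, 0.962 with Asf1b, 0.959 with Hira, 0.933 with Asf1a and -0.906 with Daxx. The libraries of a time point share their state and the scale of their library, so these correlations are given as descriptions only.

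Promoter Capture Hi-C, which lists the fragments that contact a promoter-bearing bait, gave 1 merged list per time and so no replicate check. The 4 lists, in time order, contained 138769, 137836, 131598 and 144072 pairs, and the number of listed contacts depends on depth and on the calling. The value beside each pair was a score of at least 5 in the 0h list and an unnamed whole number of at least 2 in the others, and these values were not compared. The baits of the 10 genes had 156, 169, 151 and 150 contacts, or 112, 123, 115 and 104 per 100000 listed. Numbers of single genes moved in both directions. Chaf1a had 17, 14, 10 and 7 contacts in time order, and none of its 32 contacted fragments was listed at all 4 times. Asf1b had 30, 24, 23 and 22, of which 13 were listed at all 4 times, although its TPM at 48h was 1/27.3 of that at 0h. Daxx, the gene that rose most, had 20, 21, 15 and 11. Atrx had 12, 11, 14 and 25, H3f3a 9, 8, 11 and 12, and H3f3b 3, 1, 1 and 3. The numbers were 4, 2, 4 and 7 for Chaf1b, 2, 1, 4 and 3 for Hira, and 14, 5, 6 and 11 for Asf1a. Ubn1 had the most, with 45, 82, 63 and 49 over 2 baits, and Daxx and Atrx also had 2 baits each. Several baits also hold the start of another coding gene, such as Sh3gl1 beside Chaf1a, Mcm9 beside Asf1a, Mrpl40 beside Hira and Glyr1 beside Ubn1. Both baits of Daxx do so, the first with Platr17 and the second with Tapbp and Zbtb22, and that of Asf1b holds Gm10644. The contacts of genes that share a bait cannot be told apart.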

How the data were processed

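Gene expression was measured by RNA-seq of rRNA-depleted RNA, and promoter contacts by Promoter Capture Hi-C. Per the labels and methods, the authors trimmed reads with Trim Galore (version 0.6.2), aligned them to mm10 with HISAT2 (version 2.1.0) and estimated levels with RSEM, and the TPM values were used as deposited. The strand used in counting is not given in the sources used here. For contacts, the authors deposited 1 list per time with a value for each pair (a score at 0h, and an unnamed whole number, entered as a score, at the later times), and only the presence of a pair was used. Fold changes come from limma (version 3.58.1, R 4.3.3) on log2(TPM + 0.1), with all 12 libraries in 1 fit and a mean TPM of at least 0.1. The model was tested on simulated data. The TPM table carries no depth. The p-values set each change against the spread between the 3 replicates of a time, pooled over the times and drawn toward the trend over all genes tested. The 10 genes and all lists were chosen with earlier results of these data known. Named besides the 10 genes were the extremes of each list among called genes, genes alone in a direction, and the 5 genes most alike in pattern. Further list genes (Rbbp4, Pml, Dek and those not called) were named after their values were seen. Alternatives were other pseudocounts, filters, scalings and fits, each library left out and each gene left out. No protein sequence was used here.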

Additional observations from a re-analysis of the deposited data

Results flagged for a closer look

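H3f3c, a processed pseudogene related to the H3.3 genes (chr2:119665626-119666036, GRCm38), was listed at 0 TPM in all 9 libraries of 0h, 1h and 12h and in replicate 3 at 48h, but at 7.02 TPM in replicate 1 and 8.41 TPM in replicate 2 at 48h. It was picked out because it carried signal outside the genes compared, above its level in the 0h libraries. The values equal 7.14% and 6.54% of H3f3a in those libraries. Whether these are reads of the H3.3 genes assigned to a near-identical copy was not tested. Groups of 3 libraries were not searched for outlying values.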

How the results depend on the processing

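At 48h against 0h, 7 genes were called, 7 to 8 with a library left out, and 4 with a log2 fold change beyond 2. At 12h, 6 were called, 5 to 7 with a library left out, and 0 beyond 2. At 1h, 6 were called, 2 to 8 with a library left out, 0 after median-of-ratios scaling or quantile normalization, 1 when rescaled without the 20 most abundant genes, 2 beyond a log2 fold change of 1 and 0 beyond 2. From 1h to 12h, 7 were called, 5 to 7 with a library left out, 4 beyond 1 and 2 beyond 2. From 12h to 48h, 7 were called, 7 to 8 with a library left out, 4 beyond 1, 3 beyond 2, and 4 after quantile normalization or when rescaled without the 20 most abundant genes.

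Some values turned their sign, and of these H3f3a at 1h (0.62 as deposited), H3f3a from 12h to 48h (-0.89) and Asf1a from 12h to 48h (-0.72) had been called. Under median-of-ratios scaling these were H3f3a (-0.045), Hira (-0.34) and Daxx (-0.13) at 1h, Ubn1 (-0.016) and Atrx (-0.016) at 12h, Ubn1 (0.19) at 48h, and Ubn1 (0.21), Asf1a (0.00039) and Atrx (0.74, the one called) from 12h to 48h. Under quantile normalization they were Hira (-0.28) and Daxx (-0.077) at 1h, Ubn1 (0.19) at 48h, and H3f3a (0.085), Ubn1 (0.18) and Atrx (0.56) from 12h to 48h. Rescaled without the 20 most abundant genes they were Hira (-0.18) at 1h, Ubn1 (0.13) at 48h, and Ubn1 (0.021) and Atrx (0.55) from 12h to 48h. Atrx from 12h to 48h also turned from -0.00061 to above 0 without 12h replicate 1 or 3 or 48h replicate 1 or 3 (0.087, 0.049, 0.042 and 0.096), and was -0.14 without 48h replicate 2.

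The class difference changed from 0h to 48h by -3.86, by -3.92 to -3.81 with a library left out, by -2.36 with a pseudocount of 1, by -4.23 without Asf1a, -4.25 without Chaf1b, -3.53 without Asf1b, -4.24 without Hira and -3.02 without Daxx. To 12h it changed by -1.48 (-1.65 to -1.27 with a library left out), and to 1h by 0.06 (0.0049 to 0.14), or -0.032 without Hira. The H3.3 share changed by 2.01 percentage points to 1h (1.23 to 2.73 with a library left out), 31.3 to 12h (30.9 to 31.9) and 78.8 to 48h (77.2 to 81.7). Without the most abundant canonical H3 gene the change to 12h was 39.8. With a 0h score of at least 10, contacts at 1h, 12h and 48h were 12.1, 10.8 and 10.7 times those at 0h instead of 1.08, 0.968 and 0.962, because only the 0h list was cut. With the replicate number as a block, 6, 5 and 7 genes were called at 1h, 12h and 48h, and the call of Asf1a at 12h was lost (adjusted p = 0.0513, limma). Deviations of libraries with the same number had correlations of -0.0123 to 0.257, over 0.1 in 7 of 18 pairs. For replicate 3 they were 0.0698 to 0.257, and the highest listed with another number was -0.00587. Deviations were taken from the mean of 3 libraries, so a positive value with the same number pushes the others below 0. Those negative values are therefore no separate evidence. The libraries of replicate 3 had positive correlations for every pair of times, for a reason that was not tested. The main fit did not take the numbers to pair the libraries.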

Other observations

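Daxx was set beside all other genes after its values were seen. The closest patterns over the 12 libraries were those of Ifi205 (Pearson r = 0.987), Jun (0.987), Cfp (0.982), Fgl2 (0.980) and Lgals3bp (0.978), and all 5 kept r of 0.980 or more after median-of-ratios scaling. Ifi205, of an interferon-inducible family, was listed at 0 TPM in every 0h library and had a mean of 0.353 at 12h and 12.3 at 48h. Jun, a subunit of the transcription factor AP-1, had means of 4.69 TPM at 0h, 7.98 at 12h and 27.5 at 48h. Cfp, which encodes the complement factor properdin, had means of 0.363 TPM at 0h, 1.04 at 12h and 23.3 at 48h. Like Daxx, the 5 genes had most of their level at 48h, which follows from picking them by likeness to Daxx. The points of 1 time share their state, so these correlations are descriptions.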
